A study of Mus musculus with 15 samples.

Results

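Cd28, Prelid2 and Minar1 were 3 of the 35142 genes listed for cultured mouse cerebellar cells, and they were chosen by their symbols because their levels were lower in cultures given interleukin-12 (IL-12). The fall itself is therefore the reason for their choice, and it is given here as a description with no test. The cultures came from wild-type C57BL/6 pups killed at P0-P4 and were kept until day 14 in vitro. Then recombinant murine IL-12p70 was added for 18 h to 5 cultures at 30 ng/ml and to 5 at 100 ng/ml, while 5 were left unstimulated. The sources named no allele or agent other than IL-12 that distinguished the groups. They did not say whether the 5 cultures of a group came from separate pups, so the spread between cultures may be partly technical. Poly(A) RNA was sequenced in bulk.

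The labels name the cell type as neurons, and the marker genes showed a mixture. The 12 microglia markers summed to between 6586 and 11688 TPM (a level scaled to the library total and corrected for transcript length) per culture. The 10 oligodendrocyte lineage markers summed to between 5605 and 9287 TPM, and the 9 astrocyte markers to between 3813 and 5278 TPM. The 14 cerebellar neuron markers summed to between 272 and 370 TPM. Of these, Pcp2, a Purkinje cell marker, had 0 to 3 reads per culture, while Calb1 had 735 to 1615 and Pvalb 394 to 632. Library depth ran from 25746096 to 38435850 estimated reads assigned to genes. In such bulk RNA, fewer cells of a type and less RNA per cell cannot be told apart.

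The 3 genes are best known from different pathways. CD28 is a costimulatory receptor best known on T cells, where it binds CD80 and CD86 on antigen-presenting cells and signals through PI3-kinase, GRB2 and VAV1. PRELID2 has a PRELI domain, the fold of a family of mitochondrial proteins of which PRELID1 and PRELID3B, each paired with TRIAP1, carry phospholipids between the mitochondrial membranes. MINAR1 is a membrane protein with a long disordered region that binds NOTCH2, and it is also known as UBTOR, a negative regulator of mTOR signalling that interacts with DEPTOR.

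Cd28 (ENSMUSG00000026012, GENCODE M39 on GRCm39, chromosome 1, 60755959 to 60812518, plus strand) lies beside the genes of its relatives Ctla4 and Icos. Its coding exon 2 holds the codons for the loop that contacts the B7 ligands CD80 and CD86, and the matching codons of Ctla4 and Icos are shown because they tell the 3 receptors apart at the same place. Each line gives 24 coding bases from the GENCODE M39 transcript, the 6 loop codons with 1 codon to each side, and capitals mark bases that differ from Cd28.
Cd28 (chr1:60802431-60802454, plus strand): ttcatgtaccctccgccttaccta
Ctla4 (chr1:60951869-60951892, plus strand): CtcatgtacccAccgccAtacTtT
Icos (chr1:61033139-61033162, plus strand): AtTTtTGacccAccTccttTTcAa
Ctla4 shared 19 of the 24 bases with Cd28 and Icos shared 14. Over the whole of the coding transcript of Cd28 (ENSMUST00000027165), 0 of 4317 windows of 31 bases occurred in a transcript of another gene of the files, on either strand. This search covered exact matches among the transcripts of the files only, and assignment of reads from similar but not identical sequences was not tested.

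Cd28 was expressed at a low level. Its TPM in the 5 unstimulated cultures was 5.47, 3.09, 5.43, 7.13 and 6.31. With 30 ng/ml it was 2.09, 2.94, 2.92, 2.89 and 2.56, and with 100 ng/ml it was 1.74, 2.51, 1.93, 2.61 and 2.23. Unstimulated replicate 2 was the lowest of its group, and it still lay above every treated culture. In CPM (read counts scaled to library size and not corrected for length), Cd28 averaged 15.5 ± 4.44 unstimulated, 7.43 ± 1.07 with 30 ng/ml and 6.35 ± 1.04 with 100 ng/ml (SD, n = 5 each). The fitted log2 fold change against unstimulated cultures was -1.06 (SE 0.17) at 30 ng/ml and -1.29 (SE 0.18) at 100 ng/ml, or 52.1% and 59.1% below the unstimulated level. Between the doses the log2 difference was -0.23 (95% interval -0.59 to 0.13), and the 2 ranges overlapped. Of the 164 to 583 estimated reads per culture, nearly all were on that coding transcript, with a mean share of 99.8% in unstimulated cultures and 100% in the others.

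**Figure D1:**
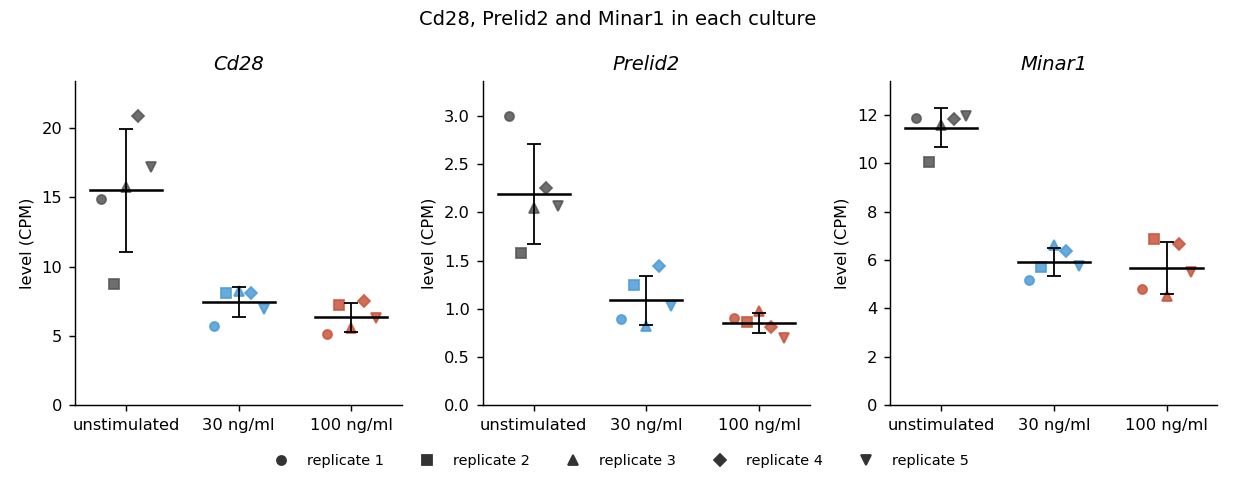
Level (CPM, y axis) of Cd28, Prelid2 and Minar1 in the 5 cultures of each group (x axis). Points are cultures with a symbol for each replicate number, lines are means and bars are SDs. In all 3 panels every treated culture lies below the lowest unstimulated culture, and the 30 and 100 ng/ml cultures overlap.

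Prelid2 (ENSMUSG00000056671, chromosome 18, 42008648 to 42084468, minus strand) was the least deeply counted of the 3, with 22 to 115 reads per culture. Its TPM was 6.48, 3.24, 4.14, 4.49 and 4.39 in unstimulated cultures. It was 1.88, 2.66, 1.71, 2.996 and 2.20 with 30 ng/ml, and 1.79, 1.78, 1.97, 1.63 and 1.44 with 100 ng/ml. The lowest unstimulated value and the highest treated value, in 30 ng/ml replicate 4, stood close together without crossing. The coefficient of variation in CPM was 12.2% with 100 ng/ml, where each culture had 22 to 30 reads, against 23.7% in both other groups. At so few reads counting noise is large, and the difference in spread was not tested. Mean CPM was 2.19 ± 0.52, 1.09 ± 0.26 and 0.850 ± 0.10 (SD, n = 5 each) in the unstimulated, 30 ng/ml and 100 ng/ml groups. The log2 fold change was -1.02 (SE 0.19) at 30 ng/ml and -1.38 (SE 0.19) at 100 ng/ml. The difference between the doses was -0.36 (95% interval -0.76 to 0.05). All but a negligible part of its reads were on the coding transcript ENSMUST00000235606. The files list 3 Prelid2 transcripts where GENCODE M39 has 18, so reads from the others were not assigned to them here. None of the 999 windows of 31 bases in that transcript occurred in another gene.

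Minar1 (ENSMUSG00000039313, chromosome 9, 89469269 to 89505606, minus strand) had the smallest coefficient of variation among unstimulated cultures, 7.04% in CPM against 28.6% for Cd28. Its TPM was 3.11, 2.72, 3.14, 2.88 and 3.63 in unstimulated cultures. It was 1.32, 1.49, 1.78, 1.71 and 1.51 with 30 ng/ml, and 1.06, 1.77, 1.27, 1.93 and 1.23 with 100 ng/ml. The treated groups overlapped each other and neither reached the unstimulated one. Mean CPM was 11.5 ± 0.81, 5.93 ± 0.57 and 5.66 ± 1.06 (SD, n = 5 each) in the same order of groups. The log2 fold change was -0.95 (SE 0.11) at 30 ng/ml and -1.02 (SE 0.11) at 100 ng/ml. The dose difference was -0.07 (95% interval -0.29 to 0.15), the smallest of the 3 genes.

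Of the tested genes, 604 (3.93%) fell at 100 ng/ml and 570 (3.71%) fell at 30 ng/ml at a false discovery rate (FDR) under 0.05 in edgeR's quasi-likelihood test with Benjamini-Hochberg adjustment. Every 100 ng/ml culture lay below every unstimulated culture for 436 of the 15360 tested genes (2.84%), and every 30 ng/ml culture did so for 531 (3.46%). The number that fell at 100 ng/ml was 1414 without 100 ng/ml replicate 2, and 337 to 355 without unstimulated replicate 1 or 5 or 100 ng/ml replicate 1 or 3. The number that fell at 30 ng/ml was 278 to 356 without unstimulated replicate 3 or 4 or 30 ng/ml replicate 1 or 5. The 3 genes were among both sets, as their choice required. Ordered from the most negative log2 fold change at 100 ng/ml, Prelid2 was at place 6, Cd28 at place 8 and Minar1 at place 14 of 15360. At 30 ng/ml they were at places 18, 16 and 23. Prelid2 was at 0.699 to 0.972 CPM with 100 ng/ml, so it passed the filter of 1 CPM only through cultures of the other groups. Both comparisons use the same 5 unstimulated cultures. Unstimulated replicate 2 was the lowest unstimulated culture in CPM for all 3 genes. Without it the log2 fold changes at 100 ng/ml were -1.44 for Cd28, -1.47 for Prelid2 and -1.07 for Minar1.

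**Figure D2:**
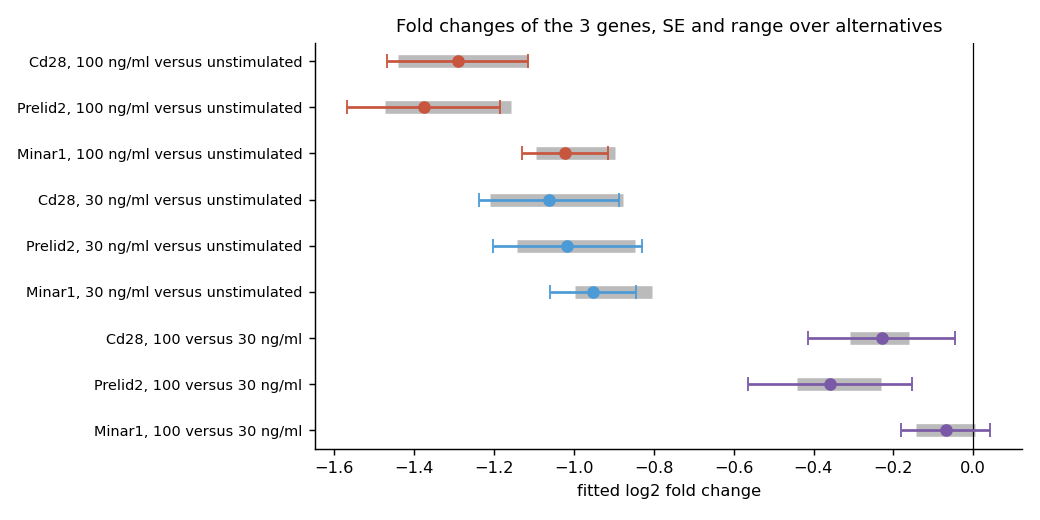
Fitted log2 fold change (x axis) of each gene in each of the 3 comparisons (y axis), with points for the fit, bars for its SE and grey bands for the range over 23 processing alternatives. The bands of both IL-12 comparisons stay below 0 for all 3 genes, from -1.47 to -0.80, and the band of Minar1 between the doses reaches 0.00.

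Minar1 was the gene whose reads were divided between transcripts, since Cd28 and Prelid2 each had at most 1.38 reads of a culture outside the main transcript. The coding transcript (ENSMUST00000044491) held 86.7 ± 4.90% of its reads in unstimulated cultures, 89.8 ± 2.63% with 30 ng/ml and 89.4 ± 8.75% with 100 ng/ml (SD, n = 5 each). The rest were assigned to a second transcript (ENSMUST00000191465), annotated as a target of nonsense-mediated decay, the pathway that removes messages with an early stop codon. The shares overlapped between the groups and differed by less than the spread between the 100 ng/ml cultures. Both transcripts were lower with IL-12. The coding transcript averaged 9.93 ± 0.93 CPM unstimulated, 5.31 ± 0.36 with 30 ng/ml and 5.05 ± 0.94 with 100 ng/ml. The decay-annotated transcript averaged 1.53 ± 0.59, 0.615 ± 0.21 and 0.614 ± 0.53 in the same order. For the coding transcript all 25 pairs of a 100 ng/ml and an unstimulated culture had the treated culture lower, and for the decay-annotated transcript this held in 23. Only 93 of the 2841 windows of 31 bases in the decay-annotated transcript were absent from the coding one, so the split between them rested on a short stretch. The files list 2 Minar1 transcripts where GENCODE M39 has 5, so reads from the others were not assigned to them here. In the coding transcript, 59 of 7571 windows (0.779%) also occurred in other genes. Measured by summed TPM instead of reads, the share of the coding transcript over all cultures was 75.1% in place of 88.6%.

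**Figure D3:**
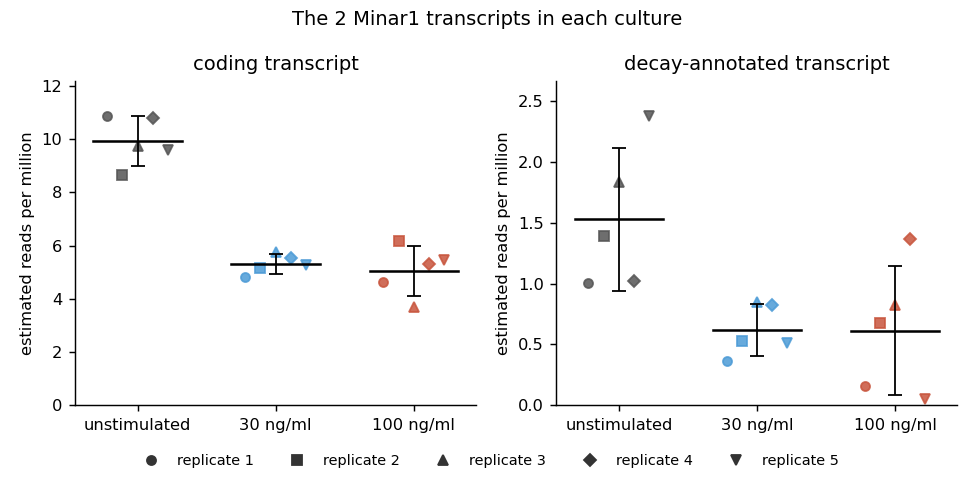
Level (CPM of estimated reads, y axis) assigned to the coding transcript of Minar1 and to the transcript annotated for nonsense-mediated decay, in the 5 cultures of each group (x axis), with means as lines and SDs as bars. The coding transcript is lower in every treated culture, while the decay-annotated transcript in 100 ng/ml replicate 4, at 1.36, lies within the unstimulated range.

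The partners of the 3 genes were taken from 5 pathway lists of 80 genes in all, of which 67 were tested. At 100 ng/ml 5 listed genes rose and 9 fell, beside 5.83% of all tested genes that rose and 3.93% that fell. At 30 ng/ml 2 rose and 7 fell, beside 4.16% and 3.71%. The 67 genes had a median log2 fold change of -0.01 with 100 ng/ml and -0.04 with 30 ng/ml, beside -0.0038 and 0.00014 for all tested genes. With library size alone as the scaling, the 639 risers and 570 fallers among all genes at 30 ng/ml became 890 and 521. None of the tested partners fell as far as Cd28, Prelid2 or Minar1 in these fits. The 3 genes were chosen by their fall and the partners were not, so this follows from the choice.

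The other CD28 family receptors were close to absent. Ctla4 had 0 or 1 read in each culture and Icos had 0 to 3, and neither was tested. The B7 ligands were present. Cd80 was at 2.68 ± 0.27 TPM unstimulated, and its log2 fold change was 0.01 (SE 0.16) at 100 ng/ml and -0.11 (SE 0.17) at 30 ng/ml, neither called. Cd86 was at 7.09 ± 0.88 TPM unstimulated, with 0.29 (SE 0.10) at 100 ng/ml and -0.23 (SE 0.10) at 30 ng/ml, again neither called. Cd86 differed between the doses, by 0.52 on the log2 scale (SE 0.10, edgeR adjusted p = 0.0241), where 0.579% of all tested genes were called. That call was lost in 6 of 23 alternatives, among them the omission of 30 ng/ml replicate 1, 2 or 5 or of 100 ng/ml replicate 4 or 5, with adjusted p between 0.000516 and 0.0882.

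Of the 7 tested genes of the CD28 family and B7 list, 2 fell at both doses and 0 rose. The count of 0 risers was also 0 in DESeq2, and 1 gene rose at each dose at an unadjusted p under 0.05 in edgeR. Cd274, which encodes the inhibitory ligand PD-L1, fell by 0.58 on the log2 scale at 30 ng/ml (SE 0.11, edgeR adjusted p = 0.00389) and by 0.39 at 100 ng/ml (SE 0.11, edgeR adjusted p = 0.0286). Vsir, which encodes the inhibitory B7 relative VISTA, fell by 0.41 at 30 ng/ml (SE 0.08, edgeR adjusted p = 0.00668) and by 0.29 at 100 ng/ml (SE 0.08, edgeR adjusted p = 0.0388). Both calls at 30 ng/ml held in all 23 alternatives. Those at 100 ng/ml were each lost when any of 7 single cultures was left out, with adjusted p up to 0.0763 for Cd274 and 0.102 for Vsir.

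Among 11 tested CD28 signalling partners, 2 fell at each dose and 0 rose, a count that was also 0 in DESeq2, with 2 rising at 100 ng/ml and 0 at 30 ng/ml at an unadjusted p under 0.05 in edgeR. Grb2, the adaptor that binds the CD28 tail, fell at both doses, by 0.20 at 30 ng/ml (SE 0.05, edgeR adjusted p = 0.0181) and by 0.18 at 100 ng/ml (SE 0.05, edgeR adjusted p = 0.0318). The kinase gene Fyn fell by 0.15 at 100 ng/ml (SE 0.04, edgeR adjusted p = 0.0209). Vav1, a signalling protein downstream of CD28, fell by 0.35 at 30 ng/ml (SE 0.08, edgeR adjusted p = 0.0175). Each of the 4 calls was lost on leaving out some single cultures. These were 3 for Fyn, 4 for Vav1, and 4 at 30 ng/ml and 6 at 100 ng/ml for Grb2. Over the 23 alternatives the adjusted p reached 0.190. The 12 microglia markers had log2 fold changes from -0.51 for Trem2 to -0.24 for Tmem119 at 30 ng/ml and from -0.23 for P2ry12 to 0.12 for Aif1 at 100 ng/ml. Vav1, at -0.35 and -0.06 (the second not called), lay within both ranges, Vsir lay within the range at 30 ng/ml only, and the part of the microglia markers in these values was not tested.

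**Figure D4:**
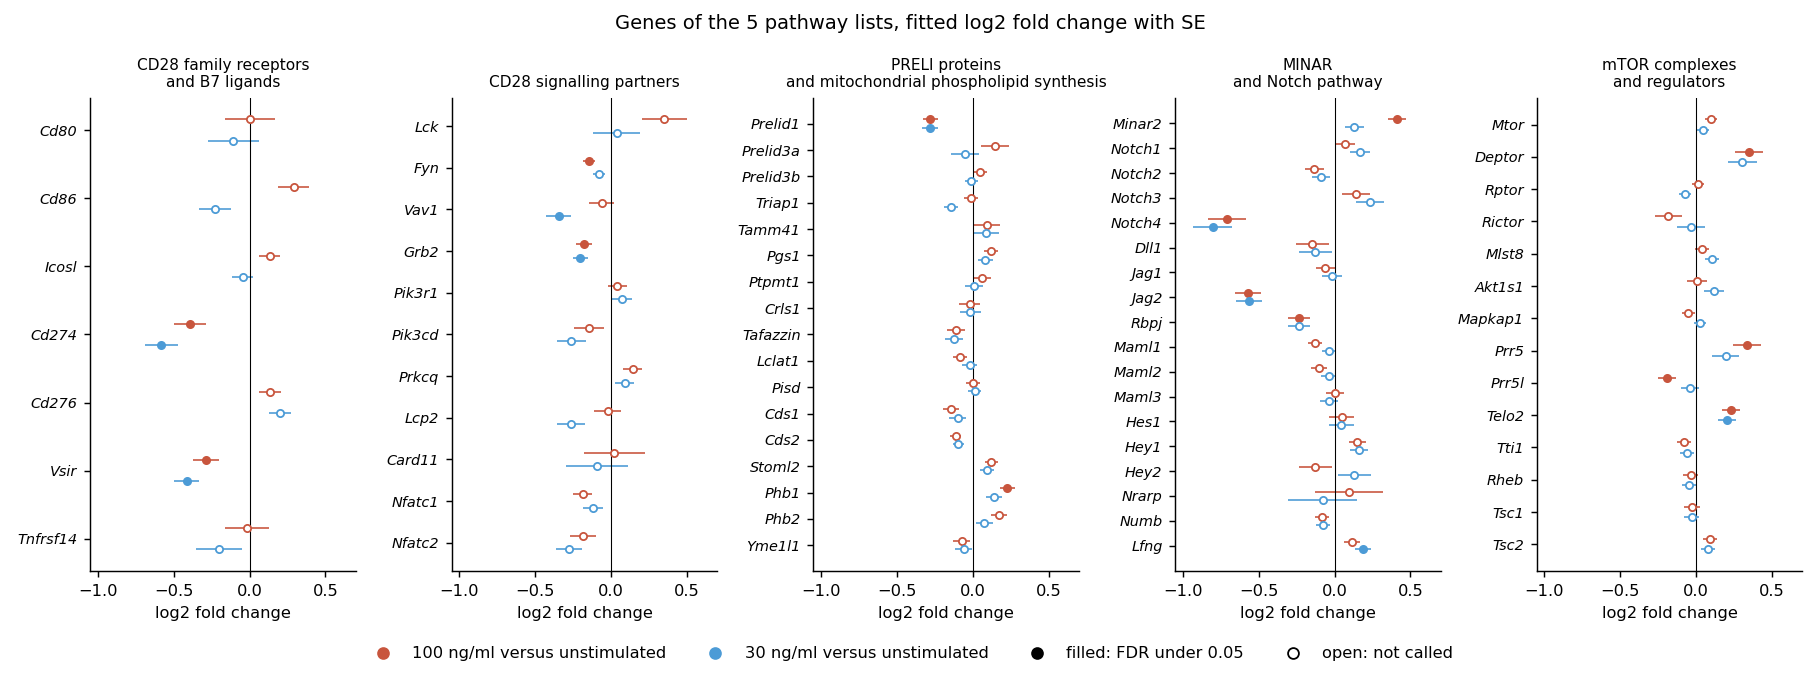
Fitted log2 fold change (x axis) with SE of each tested gene (y axis) of the 5 pathway lists, for 100 ng/ml (red) and 30 ng/ml (blue) against the same unstimulated cultures. Filled points passed an FDR of 0.05. The lowest points are Notch4, at -0.80 with 30 ng/ml and -0.71 with 100 ng/ml.

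The PRELI relatives of Prelid2 moved little. Prelid1 stood at 210.2 ± 6.28 TPM in unstimulated cultures and Prelid3b at 72.1 ± 3.39, while Prelid3a, at 4.51 ± 0.37, was at the level of Prelid2 (4.55 ± 1.18). At 100 ng/ml Prelid1 was 1 of 2 called genes among the 17 on the list of PRELI proteins and mitochondrial phospholipid synthesis. Prelid1 fell by 0.28 at 100 ng/ml (SE 0.05, edgeR adjusted p = 0.00215) and by 0.28 at 30 ng/ml (SE 0.05, edgeR adjusted p = 0.00291), and both calls held in all 23 alternatives. Prelid3a had a log2 fold change of 0.15 (SE 0.09) at 100 ng/ml and -0.05 (SE 0.09) at 30 ng/ml, and Prelid3b had 0.05 (SE 0.04) and -0.01 (SE 0.04). Triap1, the partner of PRELI proteins, had -0.01 (SE 0.05) and -0.14 (SE 0.05). None of these 3 was called at either dose. Phb1, which encodes a prohibitin of the inner mitochondrial membrane, rose by 0.23 at 100 ng/ml (SE 0.05, edgeR adjusted p = 0.00935), a call that held in all 23 alternatives.

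Minar2, the relative of Minar1, went the opposite way. Its TPM was 17.5 ± 1.11 unstimulated, 19.6 ± 1.71 with 30 ng/ml and 23.1 ± 2.05 with 100 ng/ml (SD, n = 5 each). The log2 fold change was 0.41 at 100 ng/ml (SE 0.06, edgeR adjusted p = 0.000449), called in all 23 alternatives, and 0.13 at 30 ng/ml (SE 0.06), not called. The doses differed by 0.28 (SE 0.06, edgeR adjusted p = 0.0396). This last call was lost in 14 alternatives, 10 of which left out 1 culture, with adjusted p up to 0.222.

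Of the 18 tested genes of the MINAR and Notch list, 1 rose and 3 fell at 100 ng/ml, and 1 rose and 2 fell at 30 ng/ml. Notch2, whose product MINAR1 binds, had a log2 fold change of -0.13 (SE 0.06) at 100 ng/ml and -0.09 (SE 0.06) at 30 ng/ml and was not called. The genes that fell at both doses were a receptor and a ligand at low level. Notch4 fell by 0.80 at 30 ng/ml (SE 0.13, edgeR adjusted p = 0.00124) and by 0.71 at 100 ng/ml (SE 0.13, edgeR adjusted p = 0.00206). Jag2 fell by 0.57 at both doses (SE 0.09, edgeR adjusted p = 0.000920 at 30 ng/ml and 0.000508 at 100 ng/ml). With limma on log2(TPM + 0.5) both Jag2 calls were lost, at -0.34 with 100 ng/ml (limma adjusted p = 0.310) and -0.57 with 30 ng/ml (0.0771), and so was that of Notch4 at 100 ng/ml (0.0668), while the other 22 alternatives kept these calls. The summed TPM of the 5 endothelial markers ran from 17.9 to 26.4 unstimulated. It was 12.8 to 17.1 with 30 ng/ml and 13.9 to 18.6 with 100 ng/ml. Most of this sum was Flt1, at a mean of 18.9 TPM unstimulated, and Cldn5 was at 0 in every culture. Flt1 was the only marker of the list that was called, at -0.60 with 30 ng/ml and -0.57 with 100 ng/ml. Cdh5, at -0.16 and -0.08, and Tek, at -0.77 and -0.27, were not called, and Pecam1 was not tested. The part of the endothelial markers in the Notch4 values was not tested. Rbpj, the DNA-binding factor of the pathway, was just past the threshold at 100 ng/ml, at -0.23 (SE 0.07, edgeR adjusted p = 0.04996), and lost the call in 19 of 23 alternatives, with adjusted p up to 0.275. The riser at 30 ng/ml was Lfng, a sugar transferase that modifies Notch receptors, at 0.19 (SE 0.05, edgeR adjusted p = 0.0405), a gene named after its values were seen.

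On the mTOR list 3 of 14 genes rose and 1 fell at 100 ng/ml, and 1 rose at 30 ng/ml. None fell at 30 ng/ml in edgeR or DESeq2, nor at an unadjusted p under 0.05. Deptor, which encodes an mTOR inhibitor, rose by 0.35 at 100 ng/ml (SE 0.09, edgeR adjusted p = 0.0285) and was at 0.30 (SE 0.10) without a call at 30 ng/ml. Telo2, a chaperone cofactor of mTOR and related kinases, rose by 0.23 at 100 ng/ml (SE 0.06, edgeR adjusted p = 0.0212) and by 0.20 at 30 ng/ml (SE 0.06, edgeR adjusted p = 0.0438). At 100 ng/ml the mTORC2 subunit gene Prr5 rose by 0.33 (SE 0.09, edgeR adjusted p = 0.0281) and its relative Prr5l fell by 0.19 (SE 0.06, edgeR adjusted p = 0.0430). Mtor itself was at 0.10 (SE 0.04) and 0.05 (SE 0.04) and was not called. Leaving out 1 culture lost the Deptor call in 4 cases, the Prr5 call in 5 and the Prr5l call in 11. It lost the Telo2 call in 2 cases at 100 ng/ml and 9 at 30 ng/ml. With limma on log2(TPM + 0.5) all of these calls were lost. With the replicate number as a block, those of Deptor, Prr5l and, at 30 ng/ml, Telo2 were lost. Over the 23 alternatives the adjusted p reached 0.133 for Deptor, 0.0740 for Prr5 and 0.243 for Prr5l. For Telo2 it reached 0.463 at 100 ng/ml and 0.547 at 30 ng/ml.

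Marker levels moved beside the 3 genes in part. The 16 T and NK cell markers, from the lymphocytes in which CD28 is best known, summed to 9.97 to 12.2 TPM unstimulated, 7.90 to 10.2 with 30 ng/ml and 10.2 to 12.0 with 100 ng/ml. Ncr1 and Gzmb were at 0 in every culture, and the T cell receptor genes Cd3e and Cd3g had 0 to 3 reads. Other markers had more, with 3 to 19 reads for Cd3d, 6 to 25 for Trbc2, 32 to 63 for Lck and 64 to 270 for Cd4. Trbc2, a T cell receptor constant region that was too low to be tested, was at 0.610 to 1.39 TPM unstimulated, 1.04 to 1.72 with 30 ng/ml and 1.92 to 2.14 with 100 ng/ml, so that its 100 ng/ml cultures lay above all the others. The part of such cells in the Cd28 values was not tested. None of the 3 markers tested was called in any comparison in edgeR or in DESeq2. At an unadjusted p under 0.05 in edgeR, 1 rose at 100 ng/ml and 1 fell at 30 ng/ml.

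The microglia markers were lower at 30 ng/ml, and less so at 100 ng/ml. Their sum was 8266 to 11688 TPM unstimulated, 6586 to 8266 with 30 ng/ml and 7928 to 10416 with 100 ng/ml. With 30 ng/ml 8 of the 12 fell, and at 100 ng/ml none did in edgeR or DESeq2, with 1 lower at an unadjusted p under 0.05 in edgeR. In the direct test of 100 against 30 ng/ml, 0 of the 12 were called in edgeR, 11 were higher with 100 ng/ml at an unadjusted p under 0.05 and DESeq2 called 1. Unstimulated replicate 2, where Cd28, Prelid2 and Minar1 were lowest, also had the lowest microglia sum of its group. Unstimulated replicate 4 had the highest sum, and Cd28 was highest there. Prelid2 was highest in unstimulated replicate 1, whose microglia sum of 9133 TPM was the second lowest of the group, and Minar1 was highest in unstimulated replicate 5. With 30 ng/ml the sum was lowest in replicate 1 and highest in replicate 3, as were Cd28 and Minar1 in CPM. Prelid2 was lowest in that replicate 3. With 100 ng/ml the sum was highest in replicate 4, as was Cd28, and lowest in replicate 3, as was Minar1. Cd28 was lowest in 100 ng/ml replicate 1, Minar1 highest in replicate 2 and Prelid2 highest in replicate 3. This order of cultures was not tested.

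Each gene was then set against the microglia sum, a comparison chosen after seeing the data. Cd28 was at 0.543 ± 0.11 TPM per 1000 TPM of microglia markers unstimulated, 0.353 ± 0.02 with 30 ng/ml and 0.244 ± 0.03 with 100 ng/ml (SD, n = 5 each). Prelid2 was at 0.461 ± 0.14, 0.303 ± 0.06 and 0.193 ± 0.04, and Minar1 at 0.314 ± 0.05, 0.206 ± 0.01 and 0.160 ± 0.04. At 100 ng/ml the log2 ratio to the unstimulated mean was -1.16 for Cd28, -1.26 for Prelid2 and -0.97 for Minar1, and no culture overlapped the unstimulated ones. The ratios with 30 ng/ml were -0.62, -0.61 and -0.61. On this scale Cd28 in 30 ng/ml replicate 2 reached the unstimulated range, so that 24 of 25 pairs had the treated culture lower. Set against the 14 neuron markers instead, the log2 ratios were -1.31, -1.38 and -1.07 at 100 ng/ml and -1.12, -1.06 and -1.06 at 30 ng/ml. The largest parts of that sum were Map2, Zic1 and Tubb3 (means 84.9, 72.4 and 53.4 TPM unstimulated), and Tubb3 rose at both doses.

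**Figure D5:**
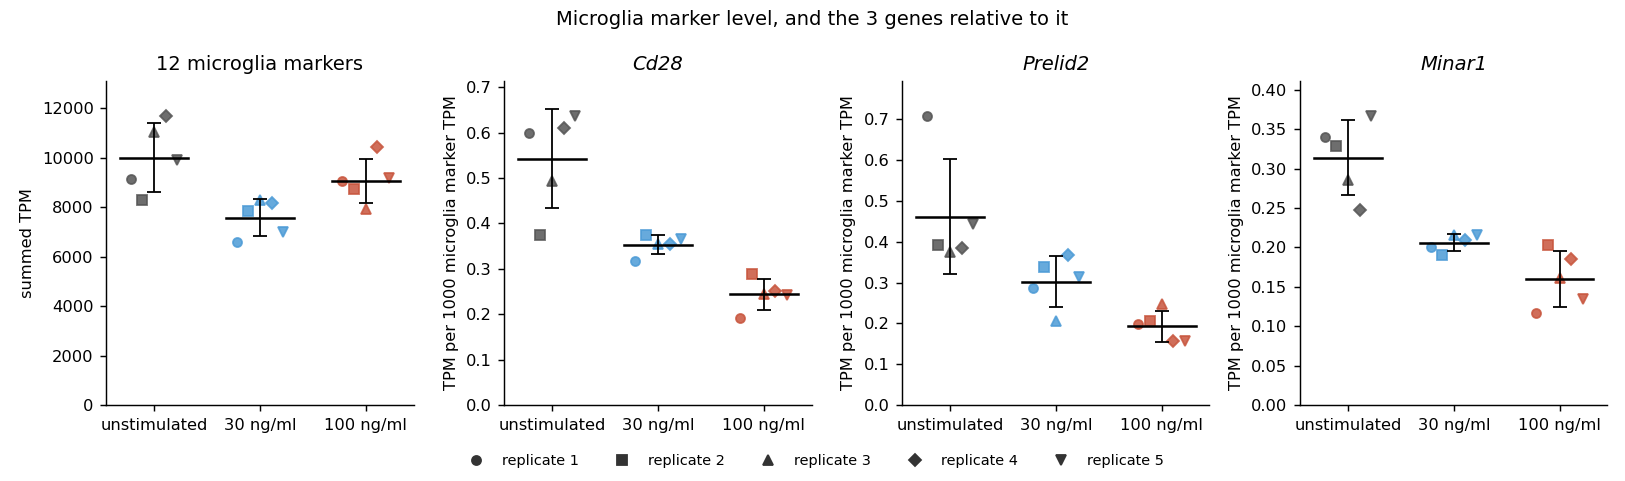
Summed TPM of 12 microglia markers (left, y axis) and TPM of Cd28, Prelid2 and Minar1 per 1000 TPM of those markers (y axes of the other panels) in the 5 cultures of each group (x axis), with means as lines and SDs as bars. The marker sum is lowest with 30 ng/ml, and the 3 ratios are lowest with 100 ng/ml.

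The other glial markers gave a different order of groups. Oligodendrocyte lineage markers summed to 6267 to 9287 TPM unstimulated, 6316 to 7772 with 30 ng/ml and 5605 to 6783 with 100 ng/ml, with 3 of 10 fallen at 100 ng/ml and 1 at 30 ng/ml. Astrocyte markers summed to 3813 to 4275 TPM unstimulated, 4519 to 5278 with 30 ng/ml and 4230 to 4690 with 100 ng/ml, with 3 of 9 risen at 30 ng/ml and 1 risen and 1 fallen at 100 ng/ml. Of 13 tested neuron markers, 1 rose and 2 fell at 30 ng/ml and 1 rose and 1 fell at 100 ng/ml. At an unadjusted p under 0.05 in edgeR, 2 rose and 7 fell at 30 ng/ml and 1 rose and 3 fell at 100 ng/ml. Fibroblast and meningeal markers summed to 418 to 560, 443 to 531 and 518 to 666 TPM in the same order, with 2 of 6 risen at 100 ng/ml. The part of any of these cell types in the levels of Cd28, Prelid2 and Minar1 was not tested.

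The genes whose pattern over the 15 cultures was most like each of the 3 were ranked by the root mean square difference of centred log2 CPM among 14183 protein-coding genes. Centring was over all 15 cultures, so the fall with IL-12 entered this difference. The 3 genes were chosen by that fall, so closeness to each other and to other falling genes was favoured by the choice. For Cd28 the closest was Minar1, at 0.227, followed by Ccr1, Slco2b1, St8sia4 and Lsp1, and Prelid2 was at place 10. For Prelid2 the order was Bnip3 at 0.236, Pdk1, Lsp1, Egln3 and Ak4, with Minar1 at place 6 and Cd28 at place 7. For Minar1 it was Rgs1 at 0.164, Gpr34, Srgn, Pdk1 and Slco2b1, with Cd28 at place 10 and Prelid2 at place 63. Ccr1, a chemokine receptor gene, had log2 fold changes of -1.28 (SE 0.25) at 100 ng/ml and -0.96 (SE 0.24) at 30 ng/ml. The other genes named had log2 fold changes between -0.47 and -1.01 in both comparisons. Lsp1, an actin-binding protein gene of leukocytes, was shared by the Cd28 and Prelid2 lists, the glycolysis regulator gene Pdk1 by those of Prelid2 and Minar1, and the transporter gene Slco2b1 by those of Cd28 and Minar1.

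The nearest tested genes on each side of the 3 were measured as well. Beside Cd28, Raph1, 149.7 kb away, had a log2 fold change at 100 ng/ml of -0.13 (SE 0.08), and Pard3b on the other side had 0.01 (SE 0.06). Beside Prelid2, Yipf5 had -0.07 (SE 0.04) and Sh3rf2 had -0.12 (SE 0.11). Beside Minar1, Mthfs had -0.19 (SE 0.07) and Tmed3 had -0.07 (SE 0.06). None of the 6 was called at either dose.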

How the data were processed

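Bulk poly(A) RNA of 15 cultures, 5 per group, was sequenced from stranded libraries as single-end reads. Each culture had a deposited table of transcripts with estimated counts and TPM made by the authors. The program that made these estimates is not given in the sources used here. The submitters' processing notes name FastQC 0.10.0, STAR 2.7.8a, featureCounts and GRCm39, which give gene counts and not transcript estimates. Per the file headers the values are estimated counts and TPM per transcript, where TPM divides by effective length and by the library total. Values were summed by gene through GENCODE M39, and 98.96% of 121798 transcripts matched. Transcripts missing from M39, with 0.677 to 0.712% of the reads, were left out.

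Gene counts were rounded and fitted with edgeR 4.0.16 (R 4.3.3) in 1 quasi-likelihood model of the 3 groups with TMM scaling, on the 15360 genes that reached 1 CPM in 2 or more cultures. Calls required an FDR under 0.05 after Benjamini-Hochberg adjustment. SEs were derived from the fold change and the F statistic, and 95% intervals from the SE by a normal approximation. The fitting was tested on simulated data. CPM values use TMM-scaled library sizes. Alternatives were other size factors, DESeq2 1.42.0, other filters, 2-group fits, a replicate block, leaving out each culture and limma 3.58.1 on log2(TPM + 0.5). Windows of 31 bases were compared over the GENCODE M39 transcripts listed in the files, where the main Minar1 and Prelid2 transcripts were shorter than in M39.

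Cd28, Prelid2 and Minar1 and the gene lists were chosen with earlier results of these data known. Named genes were the 3 genes, 12 fixed relatives and partners, of each pathway list up to 4 called genes of smallest FDR at 100 ng/ml and up to 2 at 30 ng/ml, the 5 genes most like each of the 3, and their nearest tested neighbours. Replicates are the labels' numbered cultures, and no pair of cultures agreed within counting noise.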

Additional observations from a re-analysis of the deposited data

Results flagged for a closer look

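Of 75 sets of 5 cultures examined, for Cd28, Prelid2, Minar1 and 22 named partners in 3 groups, 3 held a culture that stood apart by Dixon's gap test at the 95% level, and chance alone marks about 1 set in 20. Minar1 in unstimulated replicate 2 was at 10.04 CPM, while the other 4 unstimulated cultures lay between 11.6 and 12.0. Prelid3a in 100 ng/ml replicate 2 was at 3.44 CPM, against 4.04 to 4.26 in the rest. Telo2 in 100 ng/ml replicate 1 was at 23.6 CPM, against 20.3 to 21.1.

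The effect of IL-12 differed between the doses for 2 named genes in the test of 100 against 30 ng/ml. Cd86 was higher with 100 ng/ml by 0.52 on the log2 scale and Minar2 by 0.28. The Cd86 call was lost in 6 of 23 alternatives and the Minar2 call in 14.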

How the results depend on the processing

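Cd28, Prelid2 and Minar1 stayed lower than in unstimulated cultures at both doses in all 23 alternatives and in 2 more added after seeing the data. With 1 culture left out, the 100 ng/ml log2 fold change ran from -1.44 to -1.16 for Cd28, -1.47 to -1.22 for Prelid2 and -1.10 to -0.95 for Minar1. At 30 ng/ml it ran from -1.21 to -0.93, -1.14 to -0.86 and -0.996 to -0.91, and between the doses from -0.31 to -0.16, -0.44 to -0.23 and -0.14 to 0.00. With limma on log2(TPM + 0.5) the Minar1 value at 30 ng/ml was -0.80. Set against microglia markers, a change chosen after seeing the data, the values at 30 ng/ml were -0.62, -0.61 and -0.61. By summed TPM the share of the coding Minar1 transcript was 75.1%, and leaving out 1 culture kept the share by reads between 87.9 and 89.3%.

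The counts of called genes moved more, and the cause was not tested. At 100 ng/ml 1500 genes were called, 1964 with DESeq2, 946 in a 2-group fit and 826 with limma. Leaving out 1 culture gave 940 to 2932, with 946 without unstimulated replicate 1, 940 without unstimulated replicate 5, and 953, 2932 and 949 without 100 ng/ml replicates 1, 2 and 3. At 30 ng/ml 1209 were called, and 673 to 1668 with 1 culture left out, with 673 and 794 without unstimulated replicates 3 and 4 and 740 and 754 without 30 ng/ml replicates 1 and 5. Between the doses 89 were called, 241 with DESeq2, 51 with limma and 38 to 147 with 1 culture left out, the extremes being 30 ng/ml replicate 5 and 100 ng/ml replicate 2. Of the 67 listed genes, 14 were called at 100 ng/ml, 8 in a 2-group fit, 5 with limma and 6 to 20 with 1 culture left out, the extremes being 100 ng/ml replicates 1 and 2. At 30 ng/ml 9 were called, 14 with DESeq2 and 5 to 14 with 1 culture left out, at 5 without unstimulated replicate 3 or 30 ng/ml replicate 5 and at 14 without 100 ng/ml replicate 2. Between the doses 2 were called, 1 with library size alone or in a 2-group fit, 0 with limma and 0 to 2 with 1 culture left out, at 0 without 30 ng/ml replicate 1, 2 or 5 or 100 ng/ml replicate 5.

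Same-numbered cultures deviated from their group means with correlations from -0.18 to 0.26, and unstimulated replicate 1 correlated best with 100 ng/ml replicate 2, at 0.31, so the numbers were not taken to pair the cultures. With the replicate number as a block, 1169 genes were called at 100 ng/ml, 1081 at 30 ng/ml and 69 between the doses, and 11 listed genes were called at 100 ng/ml and 1 between the doses. Prelid2 had as few as 22 reads in a culture, the fewest of the 3 genes.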
